A study of Homo sapiens with 6 samples.

Results

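The 10 genes described here, AXL, NGFR, SOX9, SOX2, WNT5A, ROR2, ZEB1, ZEB2, SNAI2 and TWIST1, are used to tell melanoma cell states apart along the axis from differentiated to dedifferentiated and mesenchymal cells. The set was defined as a list of names and was matched by gene symbol among the 47432 genes listed in each expression table. Expression was measured by RNA-seq of total RNA from the human melanoma cell line LOX-IMVI, an established line. One group carried the pLKO.1 lentiviral control construct (shCtrl). In the other group (shNFKBIZ), a single pLKO.1 hairpin targeted NFKBIZ, which encodes IκBζ, a nuclear co-regulator of NF-κB. Both groups were transduced with lentivirus and selected with puromycin, and each had 3 libraries, described by the study as independent experiments. The comparison therefore rests on 1 hairpin in 1 cell line, and effects of the hairpin on other targets cannot be told apart from those of the loss of IκBζ. Fewer cells in a state and less RNA per cell cannot be told apart either in such bulk libraries.

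Melanoma cells can move between a pigmented, melanocyte-like state and states in which the melanocyte program is low. In the dedifferentiated states, the receptor tyrosine kinase AXL, the secreted ligand WNT5A with its receptor ROR2, and the transcription factor SOX9 are typically high, whereas neural crest-like cells are known for NGFR (CD271) and, in some models, SOX2. Transcription factors of the epithelial-mesenchymal transition (EMT) act along the same axis: differentiated melanocytic cells typically use ZEB2 and SNAI2, and dedifferentiated cells ZEB1 and TWIST1. These roles are background and were not tested here.

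The libraries held 22264473 to 24624839 total exon reads, and introns took 7.16% to 7.46% of gene reads in shCtrl and 7.63% to 8.15% in shNFKBIZ. The targeted gene NFKBIZ had 1519 to 1674 exon reads in the shCtrl and 468 to 477 in the shNFKBIZ libraries (log2 fold change -1.78, SE 0.0581, adjusted P 7.2e-17, edgeR quasi-likelihood test). The melanocyte lineage genes that usually mark melanoma were largely missing in both groups. SOX10, MLANA and S100B had 0 reads in all 6 libraries, and MITF, the master regulator of melanocytes, reached 3.21 ± 0.373 TPM (SD, n = 3) in shCtrl and 2.00 ± 0.241 TPM in shNFKBIZ.

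The levels of the 10 genes were first compared in TPM (transcript abundance scaled to exon length and to a fixed library sum). They spanned the whole range of detection. In shCtrl cells, AXL was highest with 407 ± 24.2 TPM (SD, n = 3), followed by SNAI2 with 217 ± 14.4, WNT5A with 134 ± 4.35, ZEB1 with 38.8 ± 2.52 and SOX9 with 21.6 ± 0.729. TWIST1 (16.2 ± 0.570 TPM), ZEB2 (10.8 ± 0.370 TPM) and SOX2 (3.16 ± 0.591 TPM) were lower, and NGFR and ROR2 were at or near 0. The exon length used for ZEB2 was 26151 bases over 50 annotated transcripts. Its rank in TPM and its ratio to ZEB1 depend on this length. In exon reads summed over the shCtrl libraries, ZEB2 had 5202, ZEB1 6171, SOX9 1566 and TWIST1 595. The same order was found in shNFKBIZ cells, and in both groups the ranges of neighbouring genes overlapped only for NGFR and ROR2. The spacing differed, however: WNT5A (60.4 to 63.5 TPM), ZEB1 (57.4 to 60.1 TPM) and SOX9 (53.0 to 57.0 TPM) lay close together in shNFKBIZ cells, and the mean ratio of WNT5A to ZEB1 was 3.47 ± 0.152 in shCtrl and 1.05 ± 0.0491 in shNFKBIZ. Related factors also shifted against each other, with a SOX9 to SOX2 ratio of 7.01 ± 1.34 in shCtrl and 43.5 ± 2.63 in shNFKBIZ, and a ZEB1 to ZEB2 ratio of 3.59 ± 0.159 and 6.92 ± 0.203. None of these ratios overlapped between the groups.

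**Figure D1:**
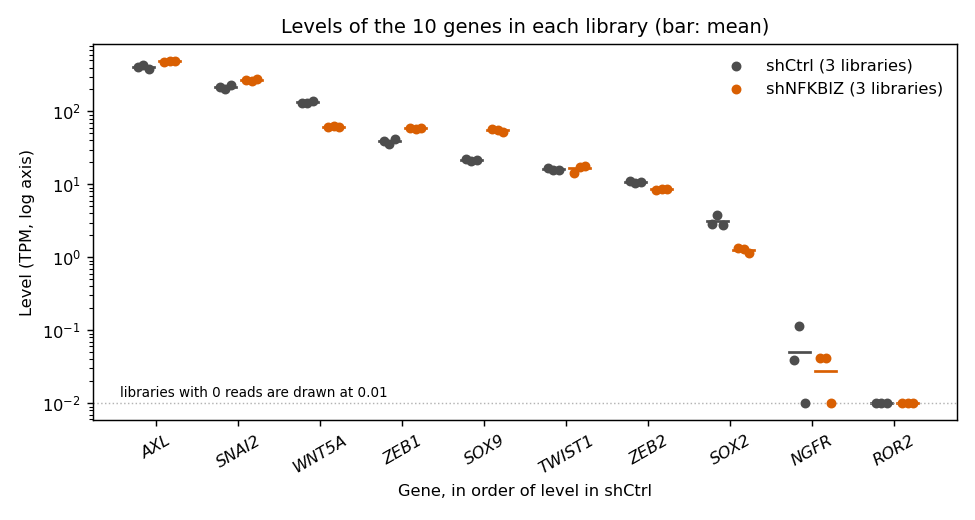
Level of each gene in TPM (log axis) in the 3 shCtrl (grey) and 3 shNFKBIZ (orange) libraries, with points for libraries and bars for means, and libraries with 0 reads drawn at 0.01. The genes are in the same order in both groups, from AXL at 407 TPM in shCtrl down to ROR2 at 0 reads.

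To ask which of the 10 genes depended on NFKBIZ, exon reads were compared between shNFKBIZ and shCtrl with the edgeR quasi-likelihood test, and P values were adjusted over all 13843 genes tested. A gene is said to have risen or fallen if its adjusted P did not exceed 0.05, and to be past the threshold if it also changed at least 2-fold. NGFR and ROR2 had too few reads to be tested. Of the other 8 genes, 3 were past the threshold: WNT5A and SOX2 were lower and SOX9 was higher in shNFKBIZ cells. Across all tested genes, 8.96% were past the threshold. Without the fold limit, the adjusted P of 7 of the 8 genes did not exceed 0.05 (4 higher, 3 lower), compared with 65.3% of all tested genes, and in the same 7 genes the read counts scaled to library size with TMM factors (CPM) did not overlap between the groups, compared with 68.7% of all tested genes. The counts for the 8 genes are therefore read against a background in which most genes differed slightly. Their median log2 fold change was 0.06, against 0.00431 for all tested genes. TPM carries no TMM scaling. Where a pair of TPM values stands beside a log2 fold change, the latter comes from the TMM-scaled fit, and the ratio of the TPM values differs somewhat from it.

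**Figure D2:**
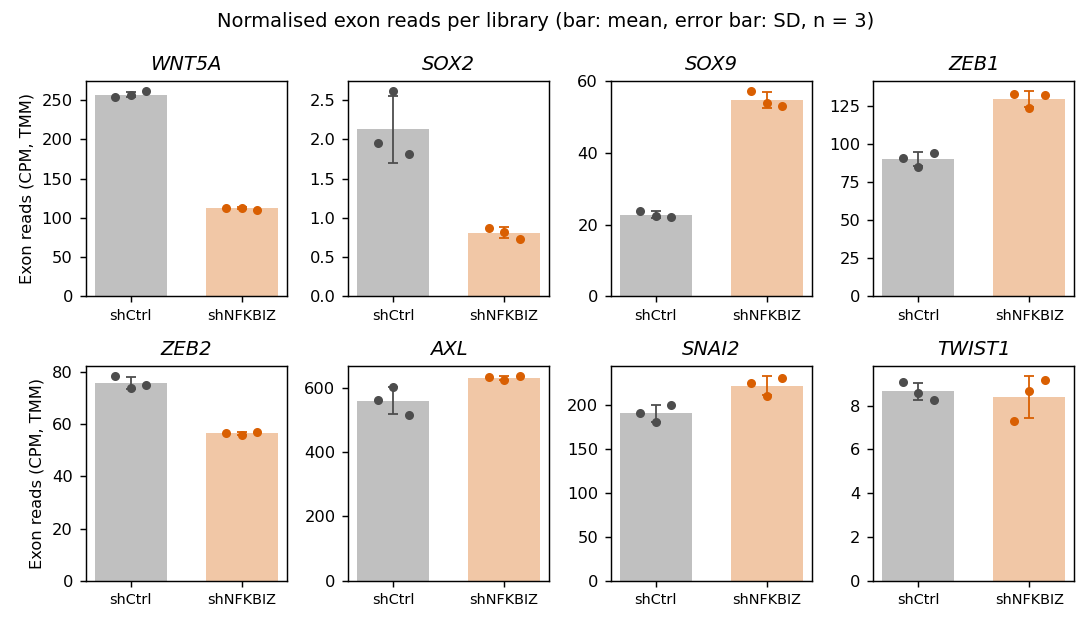
Exon reads in CPM (TMM-normalised) of the 8 tested genes, with points for the 3 libraries of each group, bars for the mean and error bars for the SD. WNT5A and SOX2 are lower and SOX9 is higher by more than 2-fold in shNFKBIZ, ZEB1, ZEB2, AXL and SNAI2 are separated by less, and the TWIST1 groups overlap.

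The RefSeq table of promoters (GRCh38.p14) held entries for AXL, ROR2, SOX2, WNT5A, ZEB1 and ZEB2, with 14 start sites in all. NGFR, SOX9, SNAI2 and TWIST1 had no entry. The 250 bases before each start were searched on both strands for the NF-κB consensus, the E-box CACCTG that ZEB and SNAI proteins can bind, and the AP-1 motif TGANTCA. Over all 35116 windows of this length, 9.96% held the NF-κB consensus, 17.49% the E-box and 6.57% the AP-1 motif. Printed below are windows that overlap no annotated exon of the 10 genes. They belong to the pair of genes that fell past the threshold, WNT5A and SOX2, and to a pair that rose in exon and intron reads, AXL and ZEB1. Each is given 5′ to 3′ on the strand of the gene, with matches in capitals. Exons of other genes were not checked, and the SOX2 and ZEB1 windows lie within the spans of SOX2-OT and ZEB1-AS1. The windows are chr3:181711675-181711924 (plus strand) for SOX2, chr3:55481399-55481648 (minus strand) for WNT5A, chr19:41218973-41219222 (plus strand) for AXL and chr10:31318167-31318416 (plus strand) for ZEB1.
SOX2: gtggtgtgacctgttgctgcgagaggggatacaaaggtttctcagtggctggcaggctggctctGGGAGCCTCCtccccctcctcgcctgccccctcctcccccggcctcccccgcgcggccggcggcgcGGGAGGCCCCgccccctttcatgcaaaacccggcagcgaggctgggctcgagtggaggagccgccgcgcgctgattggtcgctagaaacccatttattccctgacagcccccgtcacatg
WNT5A: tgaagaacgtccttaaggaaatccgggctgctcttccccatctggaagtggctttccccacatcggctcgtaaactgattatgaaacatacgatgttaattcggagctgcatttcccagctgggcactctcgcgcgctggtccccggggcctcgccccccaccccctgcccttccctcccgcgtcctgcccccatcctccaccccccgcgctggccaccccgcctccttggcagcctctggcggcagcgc
AXL: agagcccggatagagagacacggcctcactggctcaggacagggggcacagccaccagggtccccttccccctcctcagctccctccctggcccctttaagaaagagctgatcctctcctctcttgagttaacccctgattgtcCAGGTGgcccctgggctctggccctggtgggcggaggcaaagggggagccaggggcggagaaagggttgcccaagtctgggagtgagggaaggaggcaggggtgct
ZEB1: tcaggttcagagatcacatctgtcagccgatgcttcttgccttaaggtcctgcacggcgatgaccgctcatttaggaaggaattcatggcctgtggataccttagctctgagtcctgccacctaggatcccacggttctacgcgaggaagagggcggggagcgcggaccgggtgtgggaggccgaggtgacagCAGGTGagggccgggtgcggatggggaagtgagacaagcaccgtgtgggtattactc
The SOX2 window held 2 matches to the NF-κB consensus, which began 186 and 120 bases before the start. No match to any of the 3 motifs was found in the WNT5A window shown. A further WNT5A start site, upstream of the first, held 1 E-box. In AXL and ZEB1 the capitals mark 1 E-box each, read from the opposite strand as CAGGTG and beginning 106 and 57 bases before the start. Another AXL window and another ZEB1 window, which also overlap no annotated exon of the 10 genes, held no match to any motif and are not printed. Of the other ZEB1 start sites, 1 held 2 overlapping NF-κB matches and 1 held 2 E-boxes, and no AP-1 motif was found in any of the 14 windows. A match of letters is not evidence of binding, and a missing match says nothing about the factor.

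Among the receptors, AXL was abundant and rose slightly. AXL (ENSG00000167601, chromosome 19 of hg38, 41219223 to 41261766, plus strand) had 12912, 14263 and 11373 exon reads in the shCtrl libraries 1 to 3 and 14525, 14471 and 14787 in the shNFKBIZ libraries. Every shNFKBIZ library was above every shCtrl library in CPM, and the shCtrl libraries were more spread out. The log2 fold change was 0.17 (SE 0.0430, 95% interval 0.08 to 0.26, adjusted P 0.00205), which is 1.13-fold. With scaling by library size alone it was 0.26. The level of AXL stood at the 97.9th percentile of tested genes in shCtrl. Its relatives and ligands in the TAM receptor family were far lower. TYRO3, a related kinase, rose from 14.3 to 21.4 TPM (log2 fold change 0.50, SE 0.0478, adjusted P 6.63e-09), and the mean ratio of AXL to TYRO3 was 28.5 ± 2.00 in shCtrl and 22.7 ± 0.740 in shNFKBIZ. PROS1, a secreted ligand of the family, fell from 7.57 to 5.18 TPM (log2 fold change -0.63, SE 0.0920, adjusted P 3.51e-06). GAS6, the main AXL ligand, had 10 exon reads in each group, and the third receptor, MERTK, had 0 reads.

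NGFR, the low-affinity neurotrophin receptor (ENSG00000064300, chromosome 17, 49495293 to 49515008, plus strand), held 1, 3 and 0 exon reads in the shCtrl libraries, and 1, 1 and 0 in the shNFKBIZ libraries. The groups overlapped, and the ratio of shNFKBIZ to shCtrl, corrected for library totals, was 0.495 with an exact 95% interval of 0.0448 to 3.46, so that neither a gain nor a loss was detectable at this depth. None of its reads crossed an exon junction. Of the 12 genes of the NGFR pathway, including NGFR itself, 6 were tested, and 1 was past the threshold. This was SORT1, the sortilin co-receptor, with 19 reads in all shCtrl and 42 in all shNFKBIZ libraries (log2 fold change 1.12, SE 0.399, adjusted P 0.0182). With any size of change, 3 genes rose and 1 fell, where 65.3% of all tested genes rose or fell. SORCS2 rose from 2.10 ± 0.387 to 4.27 ± 0.359 TPM (log2 fold change 0.94, SE 0.134, adjusted P 2.41e-06), short of 2-fold. The gene that fell was BDNF, a neurotrophin, from 84.9 ± 0.987 to 52.5 ± 2.54 TPM (log2 fold change -0.77, SE 0.0423, adjusted P 5.79e-13). NTF3, a further neurotrophin, had no reads.

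ROR2, a receptor tyrosine kinase for WNT5A (ENSG00000169071, chromosome 9, 91563091 to 91950228, minus strand), had 0 exon reads in all 6 libraries. A count of 0 allows up to 3 reads, which correspond to 0.0794 to 0.0887 TPM depending on the library. Introns of ROR2 held 2, 1 and 0 reads in shCtrl and 2 in each shNFKBIZ library. The related receptor ROR1 had 4 exon reads in each group. Exon reads of both ROR receptors were thus at or near 0 in cells that expressed their ligand.

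WNT5A, which encodes a ligand of non-canonical Wnt signalling, fell by more than 2-fold. WNT5A (ENSG00000114251, chromosome 3, 55465715 to 55490539, minus strand) held 5852, 6073 and 5749 exon reads in the shCtrl libraries, and 2591, 2612 and 2571 in the shNFKBIZ libraries. The groups were far apart, and the 3 libraries of each group lay close together. Its level fell from 134 ± 4.35 to 61.9 ± 1.54 TPM, a change on the log2 scale of -1.20 (SE 0.0348, 95% interval -1.27 to -1.13, adjusted P 1.11e-17), which is 2.30-fold lower. Intron reads fell alike, from 730, 817 and 723 to 339, 361 and 363 (log2 fold change -1.18, SE 0.0655, adjusted P 2.23e-17). The exon and intron changes differed by -0.00148 on the log2 scale (95% interval -0.15 to 0.14). Reads across exon junctions fell from 256, 310 and 292 to 146, 157 and 126, a change on the log2 scale of -0.97 (SE 0.0955, adjusted P 1.27e-12), just short of 2-fold. The antisense gene WNT5A-AS1 overlaps WNT5A, and strand was not used in the counting. It had 8 exon reads in all shCtrl and 24 in all shNFKBIZ libraries (ratio 2.97, exact 95% interval 1.29 to 7.65).

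The close homologue WNT5B moved in the opposite direction. WNT5B held 904, 816 and 838 exon reads in the shCtrl libraries, and 1289, 1278 and 1279 in the shNFKBIZ libraries, without overlap, and rose from 32.8 ± 2.50 to 51.7 ± 0.873 TPM (log2 fold change 0.57, SE 0.0521, adjusted P 2.80e-09). The mean ratio of WNT5A to WNT5B was 4.11 ± 0.289 in shCtrl and 1.20 ± 0.0115 in shNFKBIZ. Of the 19 genes of the WNT5A-ROR2 pathway, 15 were tested. Only WNT5A and FZD3 were past the threshold, both lower, while 7 genes rose and 4 fell with any size of change, these 2 included. Over all tested genes, 8.96% were past the threshold and 65.3% rose or fell, so that these counts lie near the background. FZD3, a Frizzled receptor, fell from 4.79 ± 0.0416 to 1.14 ± 0.133 TPM (log2 fold change -2.15, SE 0.0964, adjusted P 1.74e-14). Among the other Frizzled receptors, FZD5 fell (log2 fold change -0.70, SE 0.111) and FZD2 fell (-0.39, SE 0.0635), whereas FZD7 rose (0.26, SE 0.0746). The cytoplasmic mediators DVL1, DVL2 and DVL3 rose by 0.32, 0.58 and 0.28 on the log2 scale. RYK, a further WNT5A receptor, stood at -0.08 on the log2 scale (SE 0.0444, adjusted P 0.119).

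The SOX factors moved in opposite directions. SOX9, a high-mobility-group transcription factor of the neural crest (ENSG00000125398, chromosome 17, 72121020 to 72126416, plus strand), held 548, 530 and 488 exon reads in the shCtrl libraries, and 1313, 1251 and 1239 in the shNFKBIZ libraries. All shNFKBIZ libraries were far above all shCtrl libraries. The level rose from 21.6 ± 0.729 to 55.1 ± 2.03 TPM, a change on the log2 scale of 1.27 (SE 0.0540, 95% interval 1.15 to 1.38, adjusted P 7.58e-15), which is 2.41-fold. Junction reads rose from 15, 21 and 22 to 56, 45 and 66 (log2 fold change 1.55, SE 0.223, adjusted P 4.68e-08). Introns of SOX9 held few reads, with 5, 3 and 8 in shCtrl and 11, 9 and 9 in shNFKBIZ. Their ratio was 1.70 with an exact 95% interval of 0.895 to 3.36, which includes both no change and the change of the exon reads. The antisense rows at the locus held 15, 8 and 8 intron reads in shCtrl and 23, 26 and 19 in shNFKBIZ (ratio 2.06, exact 95% interval 1.33 to 3.26). Because strand was not used, their reads cannot be told apart from those of SOX9 where the genes overlap.

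SOX2, a pluripotency and neural crest-associated factor with a single exon (ENSG00000181449, chromosome 3, 181711925 to 181714436, plus strand), was much less abundant. It held 45, 62 and 40 exon reads in the shCtrl libraries, and 20, 19 and 17 in the shNFKBIZ libraries. The groups did not overlap, and the lowest shCtrl library had more reads than any shNFKBIZ library. The level fell from 3.16 ± 0.591 to 1.27 ± 0.117 TPM, a change on the log2 scale of -1.40 (SE 0.233, 95% interval -1.88 to -0.91, adjusted P 1.91e-05), which is 2.63-fold lower. SOX2 is among the regulated genes that the study selected on these same libraries, so that its change is not independent evidence of a direction. The changes of WNT5A and SOX9 come from the same libraries and are not independent of the study either. It lies within SOX2-OT, a long non-coding gene on the same strand, which had 7 exon reads in each group and 32 and 44 intron reads in all shCtrl and all shNFKBIZ libraries (ratio 1.29, exact 95% interval 0.801 to 2.10).

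Of the 10 SOX genes examined, 6 were tested, and 3 were past the threshold, beside 8.96% of all tested genes. SOX9 and SOX2 are already counted above, and 1 of the other 4 tested SOX genes passed. This was SOX18, known from vascular development, which fell from 3.23 ± 0.540 to 1.19 ± 0.223 TPM (log2 fold change -1.50, SE 0.265, adjusted P 3.70e-05). SOX4 fell from 77.3 to 46.5 TPM (log2 fold change -0.82, SE 0.0434, adjusted P 3.59e-13), and SOX5 and SOX13 fell by 0.46 and 0.44 on the log2 scale. SOX9 was thus the single SOX gene tested that rose, and the other 5 fell, where 65.3% of all tested genes rose or fell. SOX8, SOX10 and SOX11 had no reads.

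None of the EMT transcription factors tested was past the threshold. ZEB1, a zinc-finger repressor of epithelial genes (ENSG00000148516, chromosome 10, 31318495 to 31529814, plus strand), held 2093, 2017 and 2061 exon reads in the shCtrl libraries, and 3042, 2857 and 3068 in the shNFKBIZ libraries. The groups did not overlap. ZEB1 rose from 38.8 ± 2.52 to 59.0 ± 1.41 TPM, a change on the log2 scale of 0.52 (SE 0.0430, adjusted P 5.26e-10), which is 1.44-fold. The antisense gene ZEB1-AS1 held 69, 99 and 63 exon reads in the shCtrl libraries, and 109, 117 and 116 in the shNFKBIZ libraries (log2 fold change 0.55, SE 0.146, adjusted P 0.00217). It thus rose as ZEB1 did, and strand was not used in the counting.

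ZEB2, the paralogue of ZEB1 (ENSG00000169554, chromosome 2, 144364364 to 144521057, minus strand), went the other way. It held 1804, 1747 and 1651 exon reads in the shCtrl libraries, and 1300, 1291 and 1326 in the shNFKBIZ libraries, again without overlap. ZEB2 fell from 10.8 ± 0.370 to 8.53 ± 0.0484 TPM, a change on the log2 scale of -0.42 (SE 0.0431, adjusted P 1.73e-08), which is 1.34-fold lower. In junction reads alone, with 146, 159 and 149 in shCtrl and 129, 132 and 138 in shNFKBIZ, the log2 fold change was -0.16 (SE 0.105, 95% interval -0.37 to 0.05, adjusted P 0.208), and the call was lost. The annotation of ZEB2 holds 50 transcripts and 26151 bases of exon.

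SNAI2 (Slug), a zinc-finger factor of neural crest and EMT (ENSG00000019549, chromosome 8, 48917598 to 48921740, minus strand), held 4395, 4306 and 4405 exon reads in the shCtrl libraries, and 5183, 4879 and 5393 in the shNFKBIZ libraries. All shNFKBIZ libraries were above all shCtrl libraries. SNAI2 rose from 217 ± 14.4 to 268 ± 8.98 TPM, a change on the log2 scale of 0.22 (SE 0.0418, adjusted P 9.56e-05), which is 1.17-fold. TWIST1, a basic helix-loop-helix factor (ENSG00000122691, chromosome 7, 19020991 to 19117636, minus strand), held 209, 204 and 182 exon reads in the shCtrl libraries, and 168, 201 and 214 in the shNFKBIZ libraries. The groups overlapped, and the log2 fold change was -0.04 (SE 0.101, 95% interval -0.25 to 0.17, adjusted P 0.723), an interval that leaves room for changes of that size in either direction. Of the 12 EMT transcription factors examined, 8 were tested and none was past the threshold, while 3 rose (ZEB1, SNAI2 and TCF3) and 4 fell (ZEB2, TCF4, TCF12 and PRRX1). Over all tested genes, 8.96% were past the threshold and 65.3% rose or fell. ZEB1, ZEB2, SNAI2 and TWIST1 are already counted above. SNAI1, the other Snail factor common in EMT, had 0 reads in shCtrl and 2 in shNFKBIZ, and TWIST2 had 0 reads.

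Intron reads, which stem largely from unspliced RNA, were then compared in the same way to see whether they moved with the exon reads. Among 12119 genes tested, 6.6% were past the threshold. Higher genes made up 2.71% and lower genes 3.89%. Of the 10 genes, 6 were tested, and WNT5A, which was lower, was past the threshold. Without the fold limit, AXL and ZEB1 rose and WNT5A fell, so that 3 genes passed, compared with 38.8% of all genes tested on introns. In these 3 genes the intron CPM did not overlap between the groups, and it overlapped in ZEB2, SNAI2 and TWIST1, while 48.2% of all genes tested on introns did not overlap. AXL introns had 720, 828 and 715 reads in shCtrl and 1050, 1200 and 1094 in shNFKBIZ, and rose by 0.47 on the log2 scale (SE 0.0582, adjusted P 2.38e-08). ZEB1 introns had 312, 298 and 345 reads in shCtrl and 564, 569 and 567 in shNFKBIZ, and rose by 0.74 (SE 0.0737, adjusted P 1.77e-10). Both genes were thus higher in all shNFKBIZ libraries. ZEB2 introns had 114, 135 and 99 reads in shCtrl and 117, 120 and 121 in shNFKBIZ, which overlapped (log2 fold change -0.05, SE 0.118, 95% interval -0.29 to 0.19, adjusted P 0.78). SNAI2 introns, with 12 to 17 reads per library, and TWIST1 introns, with 17 to 31, gave wide intervals (-0.73 to 0.55 for SNAI2).

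Whether exon and intron changes differed was tested as an interaction in a single model of 11025 genes, of which 28.9% passed (adjusted P not above 0.05). Of the 6 genes, 3 passed. In AXL the exon change was smaller than the intron change by 0.29 on the log2 scale (difference -0.29, SE 0.0631, adjusted P 0.000165), and its adjusted P stayed at or below 0.0101 in all 9 alternatives, which included leaving out each library. The difference was -0.20 for ZEB1 (SE 0.0726, adjusted P 0.0242). Its call was lost without shCtrl library 1 or 2 or any shNFKBIZ library (adjusted P 0.0501 to 0.136). The call was also lost when introns took the TMM factors of the exon reads (adjusted P 0.0504), with each kind of read keeping its own library totals. The ZEB1 difference itself stayed of similar size in these fits, at -0.21 to -0.17 in the omissions and -0.18 with the shared TMM factors. For ZEB2 it was -0.36 (SE 0.122, adjusted P 0.0177), and the call was lost without shCtrl library 1 or 3 or shNFKBIZ library 1 or 3 (adjusted P 0.0514 to 0.118). The share of introns in gene reads was higher in every shNFKBIZ library over all genes, as given above. With 1 TMM factor per library, that of the exon reads, for both kinds of read, the AXL difference was -0.26 (adjusted P 0.000548). Exon and intron reads kept separate library totals in that fit too, so that the higher intron share over all genes was scaled out. No difference was detected for WNT5A (adjusted P 0.992), SNAI2 (0.473) or TWIST1 (0.823).

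**Figure D3:**
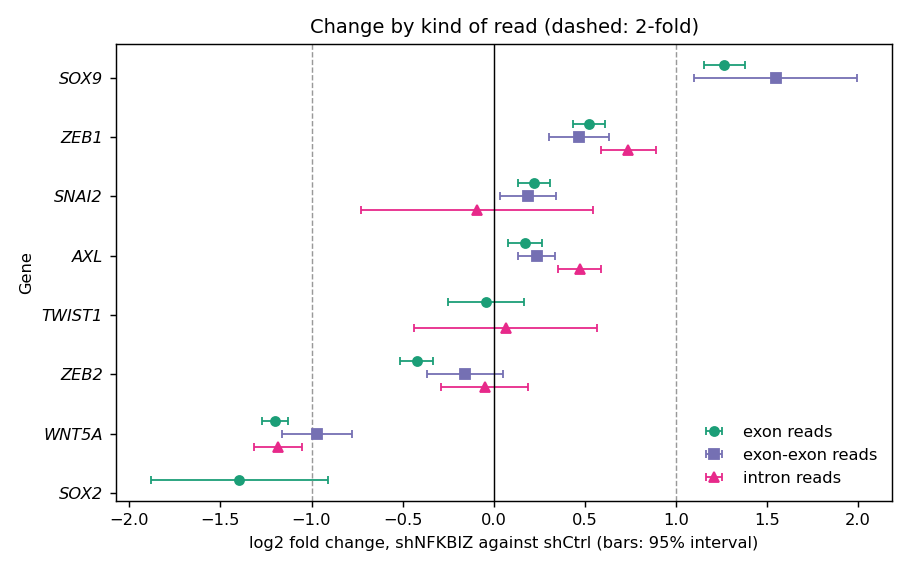
Log2 fold change of shNFKBIZ against shCtrl for the 8 tested genes in exon reads (circles), exon-exon junction reads (squares) and intron reads (triangles), with 95% intervals and dashed lines at 2-fold. WNT5A is lower in all 3 kinds of read, SOX9 is higher in exon and junction reads, and the ZEB2 change in exon reads (-0.42) is not matched in intron reads (-0.05).

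To place the 10 genes among their pathways and states, 9 hand-compiled lists were counted, with 116 distinct genes, 70 of them tested. Of the 106 genes other than the 10, 62 were tested and 12 were past the threshold, 3 higher and 9 lower. That is 19.4%, beside 8.96% of all tested genes (3.84% higher, 5.12% lower), and their median log2 fold change was -0.14. Because the lists were chosen with earlier results of these data known, this share is a description only. Most of the lower genes came from the list of undifferentiated or invasive melanoma genes, in which all 20 genes were tested, 7 were lower and 1 was higher past the threshold. AXL, a member of that list, rose 1.13-fold. CCN1 and CCN2, matricellular proteins and classical YAP targets, fell by 1.63 (SE 0.0330) and 1.74 (SE 0.0358) on the log2 scale. FGF2, a growth factor, fell from 415 ± 7.95 to 132 ± 5.65 TPM (log2 fold change -1.74, SE 0.0385, adjusted P 1.39e-19), and PDGFRB, a receptor tyrosine kinase, fell from a low level (0.663 to 0.175 TPM, log2 fold change -1.98, SE 0.318). NT5E, the ecto-5′-nucleotidase CD73, rose from 101 ± 9.13 to 291 ± 5.34 TPM (log2 fold change 1.44, SE 0.0452, adjusted P 3.57e-15). EGFR and FOSL1 rose by 0.66 and 0.73 on the log2 scale without reaching 2-fold.

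Most genes of the neural crest-like and melanocytic lists had few reads. Of 14 neural crest-like genes, 10 had a mean below 1 TPM in both groups and 4 were tested. Of these, 2 were past the threshold (1 higher, 1 lower), beside 8.96% of all tested genes, and the lower one, SOX2, is already counted above. SOX2 fell, and L1CAM, a cell adhesion molecule, rose from 36 to 197 reads summed over the libraries of a group (log2 fold change 2.43, SE 0.224, adjusted P 3.65e-09). PAX3, an upstream regulator of MITF, fell just short of 2-fold (log2 fold change -0.99, SE 0.0605). TFAP2A, the other tested gene of this list, fell from 26.2 to 16.6 TPM (log2 fold change -0.74, SE 0.0513, adjusted P 3.39e-11). Of 14 melanocyte differentiation genes, 11 had a mean below 1 TPM in both groups, 3 had no read, and none was past the threshold. Only 3 of them were tested, and they did not move in 1 direction. MITF fell (log2 fold change -0.77, SE 0.131, adjusted P 2.55e-05) and RAB27A fell (-0.32, SE 0.0702). OCA2 rose (0.79, SE 0.191, adjusted P 0.000989). Among 14 genes of the adhesion switch that accompanies EMT, 7 were tested and none was past the threshold, beside 8.96% of all tested genes. CDH1 (E-cadherin) had 1 read in shCtrl and 0 in shNFKBIZ. CDH2 (N-cadherin) rose by 0.27 (SE 0.0504) and FN1 (fibronectin) by 0.51 (SE 0.0365), while VIM (vimentin) fell by 0.19 (SE 0.0367) from 3131 to 2904 TPM.

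**Figure D4:**
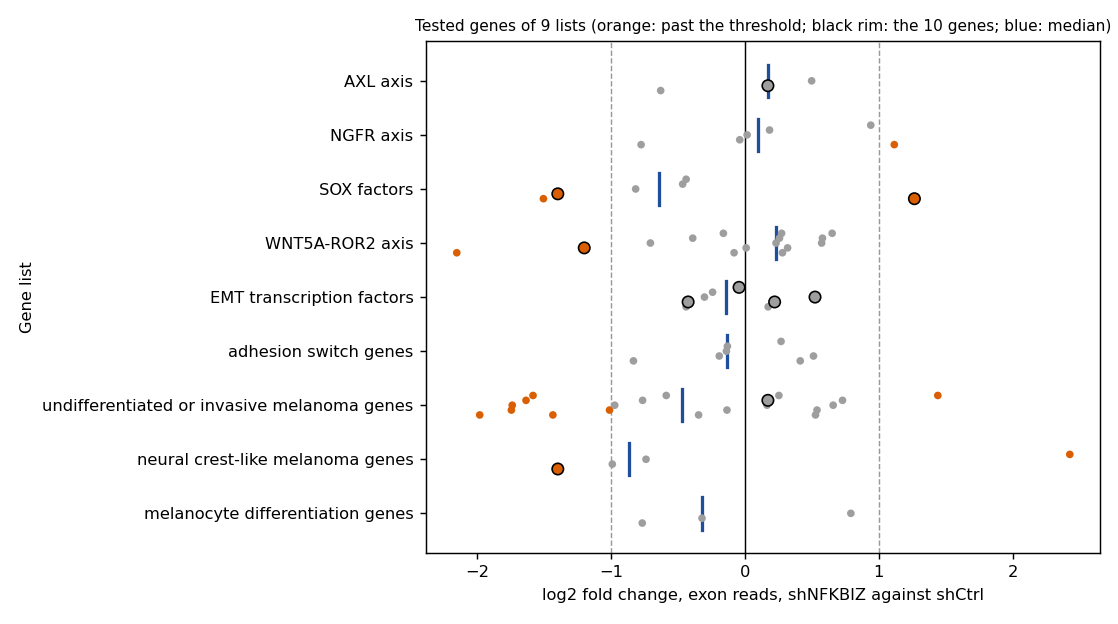
Log2 fold change in exon reads of every tested gene (points) of the 9 lists, with genes past the threshold in orange, the 10 genes ringed in black, list medians as blue bars and dashed lines at 2-fold. WNT5A and SOX2 lie beyond the lower and SOX9 beyond the upper 2-fold line, and 7 genes of the invasive list lie beyond the lower one.

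Markers of other cell types were counted because several of the 10 genes are also expressed by fibroblasts and other mesenchymal cells. The summed level of 7 fibroblast markers was 68.7 to 71.8 TPM in shCtrl and 37.5 to 40.4 TPM in shNFKBIZ, and stemmed mainly from COL1A1 and THY1, which fell, while PDGFRA rose (log2 fold change 2.06, SE 0.0795). Of these 7 markers, 4 were tested and all 4 were past the threshold (1 higher, 3 lower), beside 8.96% of all tested genes. Among them, COL1A2 fell from 48 to 3 reads (log2 fold change -3.85, SE 0.556). The markers not tested, DCN, LUM and PDPN, had 7, 1 and 0 reads in shCtrl and 0 in shNFKBIZ. Leukocyte markers summed to 96.7 to 100.4 TPM in shCtrl and 198 to 200 TPM in shNFKBIZ, nearly all from CD68, while PTPRC had 1 and 2 reads and CD3E had none. The 6 keratinocyte markers, of which KRT10 made up most, summed to 60.1 to 72.1 TPM in shCtrl and 73.1 to 80.7 TPM in shNFKBIZ. Of these, 2 were tested. KRT14 rose past the threshold, from 24 to 63 reads (log2 fold change 1.37, SE 0.339), and KRT10 did not (0.09, SE 0.0582). The 5 endothelial markers summed to under 1 TPM in each library. The 7 pan-melanoma markers summed to 453 to 472 TPM in shCtrl and 315 to 333 TPM in shNFKBIZ, mainly through S100A6. The part of these shifts in the changes of the 10 genes was not tested.

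The genes whose pattern over the 6 libraries was most like that of the 3 genes past the threshold were found by Pearson's r of log2 CPM. For WNT5A these were SRXN1, FAM32A and SOCS3 (r of at least 0.9998), for SOX9 CD93, KLHDC3 and RBM4 (at least 0.9993), and for SOX2 WDTC1, AVPI1 and BSG (at least 0.9983). In this design of 2 groups, 2644, 2085 and 1851 genes had an r above 0.95 with WNT5A, SOX9 and SOX2, and the values are given as a description.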

How the data were processed

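Reads were mapped by the authors to hg38 and an Ensembl annotation in CLC Genomics Workbench (default settings, strand not used). Deposited were raw counts per gene and library, divided into exon, intron and exon-exon reads. TPM was recalculated from exon reads per exon length and matched the deposited values to within rounding. Genes passing filterByExpr were TMM-normalised and tested two-sided by quasi-likelihood F test in edgeR 4.0.16 and R 4.3.3 (Benjamini-Hochberg over all tested genes, no replicate block), separately for exon and intron reads. Exon against intron changes were tested as an interaction with library blocks. The SE is the log2 fold change divided by the square root of F. The fits were tested on simulated data. Few-read ratios have exact conditional intervals, which cover counting error only. The libraries held 22264473 to 24624839 exon reads. Alternatives included RLE factors, library size alone, other filters, DESeq2 1.42.0, unique reads, a replicate block and leaving out each library. Exon-exon reads were added after seeing the data. List genes past the threshold (up to 4 per direction and list) were named, besides genes fixed by role. Pattern likeness used log2(CPM + 0.1). The 10 genes, the lists and the tests were chosen with earlier results of these data known. The sources name different sequencing providers, and none is given here. P values set the difference between the groups against the spread of these libraries within groups. They cover neither other hairpins nor other cell lines. Some list genes are not reported here.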

Additional observations from a re-analysis of the deposited data

How the results depend on the processing

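Of 250 values of the 10 genes recomputed under the alternatives, 0 called values reversed, and 12 moved from past to short of the threshold, which for exon and intron reads includes the 2-fold limit. These were 11 exon-intron differences of ZEB1 or ZEB2 and WNT5A in exon-exon reads. ZEB2, which was short of 2-fold throughout, also had an adjusted P above 0.05 in exon-exon reads (0.208). Without the fold limit, genes past the threshold numbered 9039 in exon reads (4496 higher, 4543 lower) and 4698 in intron reads, in place of 1241 and 800, and 7 of the 10 genes passed in exon and 3 in intron reads, since the limit itself was removed. With exon-exon reads alone, 700 genes passed, of the 10 genes only 1 (SOX9), WNT5A was at -0.97, and SOX2, with a single exon, gave no value. With at least 10 counts in every library, 466 genes passed in introns, where fewer genes were tested. Library size alone gave 668 higher and 584 lower genes in exon reads, in place of 532 and 709, and 5 higher and 10 lower in the 9 lists, in place of 4 and 11. Leaving out each library gave 1315 to 1361 genes in exon and 838 to 928 in intron reads. Under each of these omissions 3 of the 10 genes passed in exon and 1 in intron reads, but 1 to 2, in place of 3, had different exon and intron changes, and 1 remained without shCtrl library 1, shNFKBIZ library 1 or shNFKBIZ library 3. The cause was not tested. Replicate numbers did not pair the libraries (correlation of deviations 0.0207 to 0.0561 in exon and 0.0442 to 0.0742 in intron reads), and with a replicate block 1244 genes passed in exon and 801 in intron reads, including 3 and 1 of the 10 genes. Depth limits NGFR, ROR2, the introns of SOX9, SNAI2 and TWIST1, and SOX2.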
